A study of Mus musculus with 4 samples.

Results

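Autophagy genes were followed in activated mouse helper T cells. The set held 40 listed genes that act in initiation, membrane supply, conjugation, cargo selection and transcriptional control of autophagy. They were found by matching each unversioned gene identifier to its GENCODE symbol, and all 40 were present among the 50600 genes of the deposited tables.

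The series held RNA-seq of 1 group, 4 libraries of primary T cells from C57BL/6NJ mice. The file headers describe the cells as Th0 at 16 h of activation. Th0 usually denotes helper T cells stimulated with no lineage-directing cytokines. No untreated, resting or mutant cells were compared, so the comparisons below are between genes within a library and between replicate libraries. The labels number the libraries as biological replicates 1 to 4 and list 1 donor identifier for all of them. Whether separate animals were used is not stated, so p-values measure only the spread between these samples, which may be technical. The assay is labelled total RNA-seq, but the linked library protocol is named for polyA+ RNA, and which of them applied was not settled. Age was labelled unknown and sex as not collected.

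Libraries held 46192242 to 63313389 counted read pairs, of which 0.505 to 0.664% came from mitochondrial genes. All 5 T cell markers (Cd3e, Cd3g, Trac, Cd4 and Cd5) were above 1 TPM in each library, and their levels summed to 4110 to 4328 TPM. TPM is a read count divided by gene length and scaled to a fixed library total. None of the 4 B cell markers reached 1 TPM in every library, and their sum ran from 2.07 to 8.75 TPM, lowest in replicate 4. The 5 macrophage and monocyte markers summed to 0.0490 to 0.385 TPM, with Cd14 at 0, and the 4 dendritic cell markers to at most 0.0878 TPM, with Siglech at 0. All 4 neutrophil markers were at 0, as were 3 of the 4 erythroid and platelet markers. NK cell markers summed to 0.447 to 1.94 TPM and stromal and epithelial markers to 1.00 to 1.66 TPM. Of the CD8 genes, Cd8a averaged 0.776 ± 0.380 TPM and Cd8b1 57.5 ± 3.71 TPM (SD, n = 4).

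Autophagy delivers cytoplasm and organelles to the lysosome in a vesicle, the autophagosome. A kinase complex around ULK1 starts the process, a class III PI3-kinase complex marks the site with the lipid PI3P, and ATG9 and ATG2 proteins bring in vesicles and lipid. Conjugation enzymes then attach small ubiquitin-like ATG8 proteins to the membrane, where cargo receptors bind them. In T cells autophagy is known for clearing organelles and sustaining survival and metabolism after activation.

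The ATG8 proteins are made as precursors, and an ATG4 protease cuts each behind a glycine, which is then joined to the lipid. The coding ends of the 5 mouse ATG8 genes are shown because they hold the site on which both protease and conjugation enzymes act, and because the family is the main comparison between paralogues below. Each line gives the last 45 coding bases before the stop codon, 5′ to 3′ on the plus strand, from the GENCODE M21 principal transcript on GRCm38, with the codon of that glycine in capitals.
Map1lc3a, chr2:155277590-155277634: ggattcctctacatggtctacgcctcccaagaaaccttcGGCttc
Map1lc3b, chr8:121596723-121596767: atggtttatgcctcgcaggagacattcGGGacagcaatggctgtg
Gabarap, chr11:69994477-69994521: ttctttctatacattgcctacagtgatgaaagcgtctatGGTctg
Gabarapl1, chr6:129541120-129541164: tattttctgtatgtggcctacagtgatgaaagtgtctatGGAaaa
Gabarapl2, chr8:111952358-111952402: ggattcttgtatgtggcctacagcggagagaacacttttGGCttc
The glycine was codon 120 in Map1lc3a and Map1lc3b and codon 116 in the GABARAP subfamily. Map1lc3b carried 5 codons after it, and each of the other 4 genes carried 1. Over the whole aligned coding sequence Gabarap matched Gabarapl1 at 74.6% of positions and Gabarapl2 at 62.1%, and Map1lc3b matched Map1lc3a at 74.1%. Across the 2 subfamilies identity was 50.1 to 53.9%. No pair of ATG8 coding sequences shared a run longer than 17 bases.

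Of the 40 autophagy genes, 38 were at 1 TPM or more in every library. This is 95% of them, against 45.2% of 21751 nuclear protein-coding genes. The exceptions were Wipi1 and Optn. The median of the mean levels was 26.4 TPM, near the middle of the 9840 detected protein-coding genes, whose median was 32.7 TPM with quartiles of 11.8 and 79.997 TPM. Sqstm1 and Gabarap exceeded 100 TPM, 28 genes lay between 10 and 75 TPM, and 8 between 1 and 10 TPM. The set summed to 1249 to 1326 TPM per library, and Sqstm1 and Gabarap together made up 21.3% of it. Among the 38 detected genes the coefficient of variation over the 4 libraries had a median of 5.97% and ran from 1.66% for Atg4b to 27.1% for Atg4c.

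**Figure D1:**
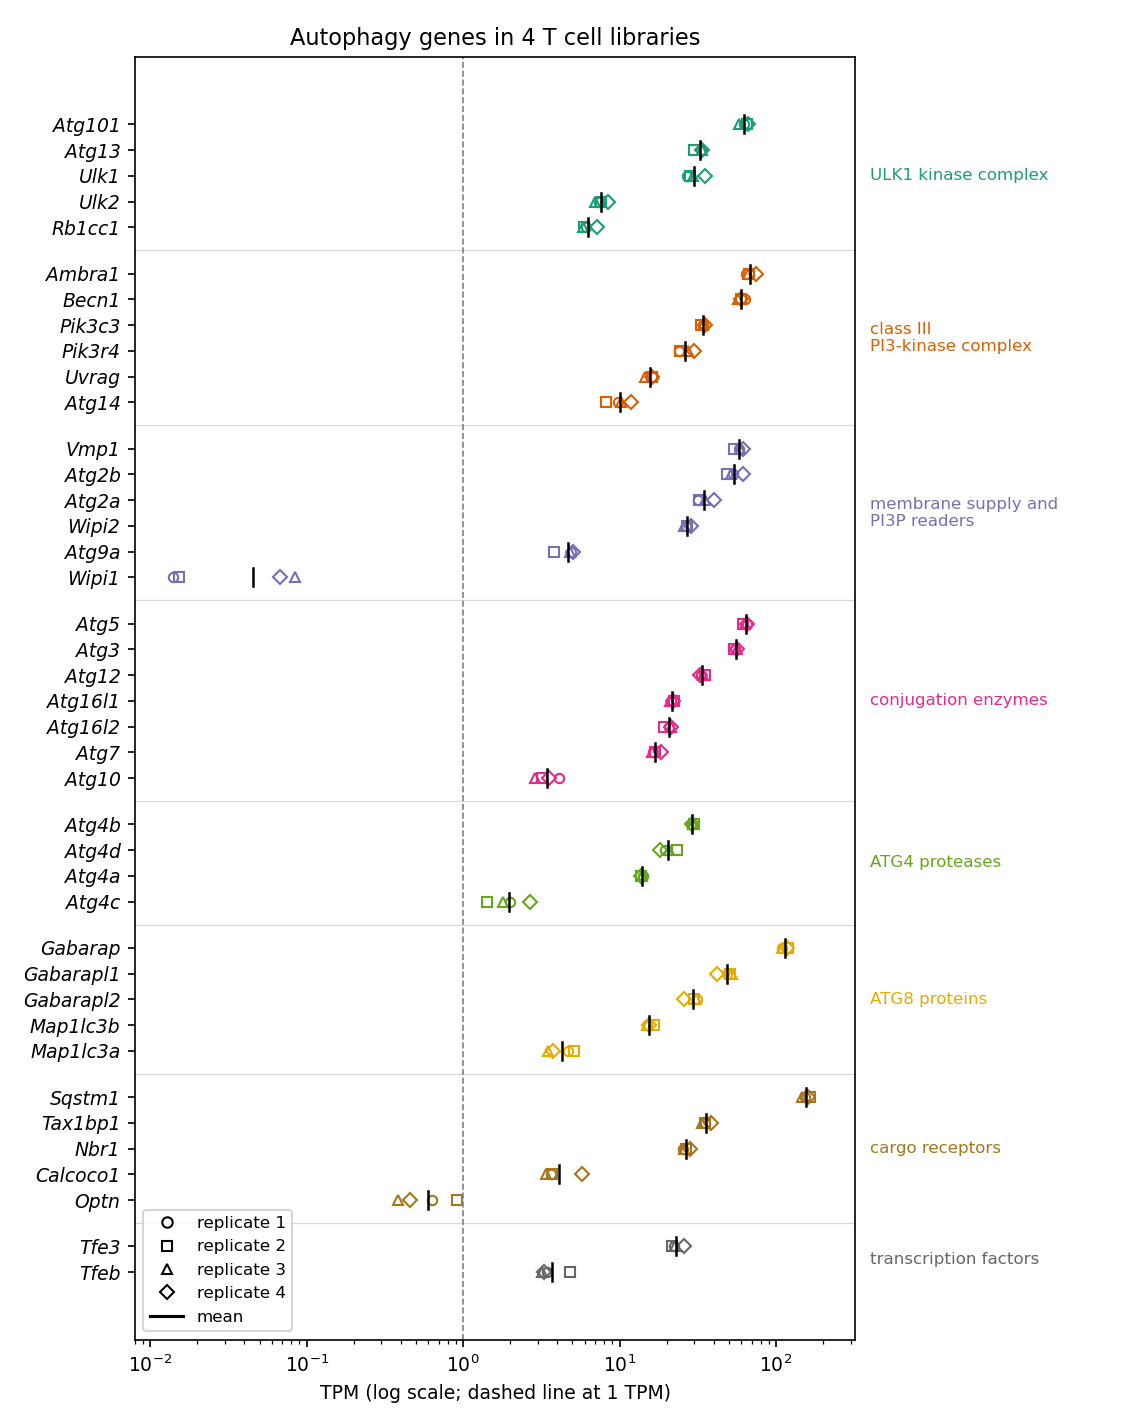
TPM (log scale) of the 40 autophagy genes in each of the 4 T cell libraries, grouped by step and ordered by mean within a step. Symbols are replicates, the vertical bar is the mean, and the dashed line is at 1 TPM. Wipi1 and Optn lay below the line in all 4 libraries, and Sqstm1 and Gabarap lay farthest right.

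The gene length used for TPM moved some levels. The deposited length merges every annotated exon of a gene. With the length of the principal transcript instead, an alternative chosen after seeing the data, Wipi2 was 3.71 times as high, Atg16l1 2.12, Tax1bp1 2.10, Map1lc3b 2.05 and Tfe3 1.95 times, while Atg12 was at 0.360 of its level. Changing all lengths also rescaled each library to its fixed total, so a gene of unchanged length moved too. Atg5, of 2352 bases by both lengths, was at 0.689 of its level. Across the 40 genes the levels under the 2 lengths had a Spearman rho of 0.877, with the counts shared by both. Sqstm1 and Gabarap stayed first and second. Principal transcripts came from GENCODE M21, whereas reads were counted over M13 exons. Those of Atg12, Atg14 and Atg101 exceed the deposited length, so part of each lay outside the counted exons. Their levels by that measure may be too low.

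In the ULK1 kinase complex all 5 genes were detected, over a 10.04-fold range. Atg101, a scaffold partner that steadies ATG13, was highest at 62.1, 64.8, 58.2 and 66.0 TPM in replicates 1 to 4. Atg13, the adaptor of the kinase, had 33.4, 29.7, 33.8 and 33.6 TPM. Ulk1, the kinase itself, had 27.2, 28.1, 29.5 and 35.2 TPM. Replicate 4 stood highest for Atg101 and Ulk1, and replicate 2 lowest for Atg13. Ulk2, the paralogue of Ulk1, had 7.42, 7.61, 6.97 and 8.45 TPM. Rb1cc1, a large scaffold of the complex, was lowest at 6.06, 5.94, 5.84 and 7.15 TPM. With principal lengths Ulk2 was the lowest instead, at 5.46 TPM, with Rb1cc1 at 8.32 TPM. The Ulk1 and Ulk2 levels did not overlap, and Ulk1 was 3.94 times as high. The within-library difference of log2(TPM + 1) was 1.84 ± 0.11 (SD, n = 4), higher for Ulk1 in each library (exact sign-flip permutation, two-sided, p = 0.125, adjusted p = 0.13 over the 25 pairs compared). That p is the smallest 4 libraries can give, so no pair could reach 0.05.

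The class III PI3-kinase group was also detected in full. Ambra1, a regulator that binds Beclin 1, averaged 68.1 ± 4.36 TPM and Becn1, which encodes Beclin 1, 59.8 ± 2.44 TPM (SD, n = 4). Pik3c3, the catalytic lipid kinase, had 34.0, 33.4, 34.1 and 35.1 TPM in replicates 1 to 4. Its coefficient of variation of 2.04% was among the smallest of the set. Pik3r4, the regulatory subunit that anchors the kinase, ran from 23.9 to 29.8 TPM, with replicate 4 highest. Atg14, which directs the kinase to autophagosome formation, had 9.79, 8.25, 10.3 and 11.8 TPM. Uvrag, its counterpart in a complex of the endosomal route, had 16.3, 16.1, 14.6 and 16.1 TPM. The 2 ranges did not overlap. Atg14 was lower than Uvrag in all 4 libraries, with a log2(TPM + 1) difference of -0.61 ± 0.22 (exact sign-flip p = 0.125), and -1.44 ± 0.21 with principal transcript lengths.

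Among genes of membrane supply and PI3P binding, Vmp1, an endoplasmic reticulum lipid scramblase, averaged 57.8 ± 3.15 TPM (SD, n = 4). The lipid transfer proteins had unequal levels. Atg2a had 31.6, 32.1, 35.4 and 40.4 TPM, and Atg2b 53.3, 48.9, 51.5 and 61.8 TPM, so the ranges did not overlap. Atg2a was lower by a log2(TPM + 1) difference of -0.62 ± 0.09, in 4 of 4 libraries (exact sign-flip p = 0.125). Atg9a, the vesicle scramblase, was at 4.92, 3.83, 4.83 and 5.05 TPM. Of its exon bases 31.8% are shared with another gene on the same strand, where reads may be left uncounted, and leaving those bases out of its length gave 6.74 ± 0.815 TPM.

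The PI3P readers Wipi2 and Wipi1 stood far apart. Wipi2, which recruits ATG16L1 to the membrane, had 26.7, 27.1, 25.7 and 28.8 TPM in replicates 1 to 4. Wipi1 had 1, 1, 7 and 4 read pairs, or 0.0141, 0.0153, 0.0842 and 0.0676 TPM. The exact 95% Poisson intervals for Wipi1, which cover counting error only, reached at most 0.173 TPM in any library. The difference of log2(TPM + 1) was 4.75 ± 0.08, in 4 of 4 libraries (exact sign-flip p = 0.125), a value held down by the pseudocount at so low a level. In bulk RNA, fewer cells that express a gene and less of its RNA per cell cannot be told apart. Wipi2 averaged 100.4 ± 5.03 TPM with its principal transcript length of 1959 bases, against the 10543 bases of its merged exons, and had rank 3 of the 40 by that measure.

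Conjugation enzymes form a relay. Atg7, the activating enzyme for both ATG8 and ATG12, averaged 16.9 ± 1.02 TPM (SD, n = 4). Atg3, the conjugating enzyme for ATG8, had 54.6, 53.9, 56.3 and 56.0 TPM. Atg10, the conjugating enzyme for ATG12, had 4.13, 3.19, 2.90 and 3.52 TPM. Atg3 was 16.1 times as high as Atg10, with no overlap, and the log2(TPM + 1) difference was 3.67 ± 0.18, in 4 of 4 libraries (exact sign-flip p = 0.125). Atg5, the acceptor of ATG12, averaged 64.0 ± 1.85 TPM and was the highest gene of this step with merged exons. With principal lengths it averaged 44.1 TPM, below Atg3 at 58.3 and Atg16l1 at 45.8 TPM. The length of Atg5 was 2352 bases by both measures, so its fall came from the rescaled library total. Atg12 averaged 33.8 ± 1.04 TPM, but 12.2 ± 0.370 TPM with its principal transcript length. That transcript has 4765 bases in GENCODE M21, against the 2492 bases of the M13 exons over which reads were counted. Part of it lay outside those exons, so the 12.2 TPM may be too low.

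Atg16l1, which carries the ATG12 and ATG5 conjugate to the membrane, and its paralogue Atg16l2 overlapped. Atg16l1 had 21.2, 22.2, 21.003 and 22.1 TPM, and Atg16l2 20.7, 19.2, 21.4 and 21.4 TPM. Atg16l1 was higher in 3 of 4 libraries, and the log2(TPM + 1) difference of 0.06 ± 0.10 was smaller than its spread (exact sign-flip p = 0.25). With principal transcript lengths Atg16l1 was 2.45 times as high, in 4 of 4 libraries. Whether the levels overlapped therefore depended on the length used.

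The ATG8 family was dominated by the GABARAP subfamily. Gabarap had 109, 120.1, 110.0 and 118 TPM in replicates 1 to 4. Gabarapl1 had 48.3, 51.1, 52.1 and 42.3 TPM, and Gabarapl2 had 31.4, 29.9, 30.9 and 25.8 TPM. Replicate 4 was the lowest for Gabarapl1 and Gabarapl2, but not for Gabarap. Map1lc3b, the source of the LC3B protein commonly used to mark autophagosomes, had 14.98, 16.7, 14.96 and 15.3 TPM. Map1lc3a was lowest at 4.68, 5.15, 3.50 and 3.78 TPM. No 2 of the 5 genes overlapped, and the order was the same in every library. Gabarap lies at chr11:69991143-69994951 (mm10, ENSMUSG00000018567.14) and Map1lc3b at chr8:121590361-121598760 (ENSMUSG00000031812.16).

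As a share of the summed ATG8 TPM, Gabarap held 54.0 ± 2.53%, Gabarapl1 22.8 ± 1.69%, Gabarapl2 13.9 ± 1.12%, Map1lc3b 7.30 ± 0.203% and Map1lc3a 2.01 ± 0.315% (SD, n = 4). The GABARAP subfamily together held 90.6, 90.2, 91.3 and 90.7%. Gabarap exceeded Map1lc3b 7.39-fold, a log2(TPM + 1) difference of 2.81 ± 0.04, in 4 of 4 libraries (exact sign-flip p = 0.125). It exceeded Gabarapl1 by 1.23 ± 0.17 on the same scale. Map1lc3b was 3.62 times as high as Map1lc3a, a difference of 1.65 ± 0.17. All 10 pairs within the family kept 1 direction in the 4 libraries, with no count of other gene pairs to set beside this.

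The position of Map1lc3b depended on length. Its merged exons spanned 7517 bases and its principal transcript 2532 bases. With principal lengths it averaged 31.7 ± 1.68 TPM, its share was 15.3%, and Gabarapl2 lay below it in each library, by a log2(TPM + 1) difference of -0.17 ± 0.15, against 0.89 ± 0.15 above it with merged exons. The GABARAP subfamily then held 83.2 ± 0.510%. Counting read pairs with no length at all gave the subfamily 75.7 ± 0.687% and Map1lc3b 23.3%. Under each of the 3 measures Gabarap held the most and Map1lc3a the least.

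**Figure D2:**
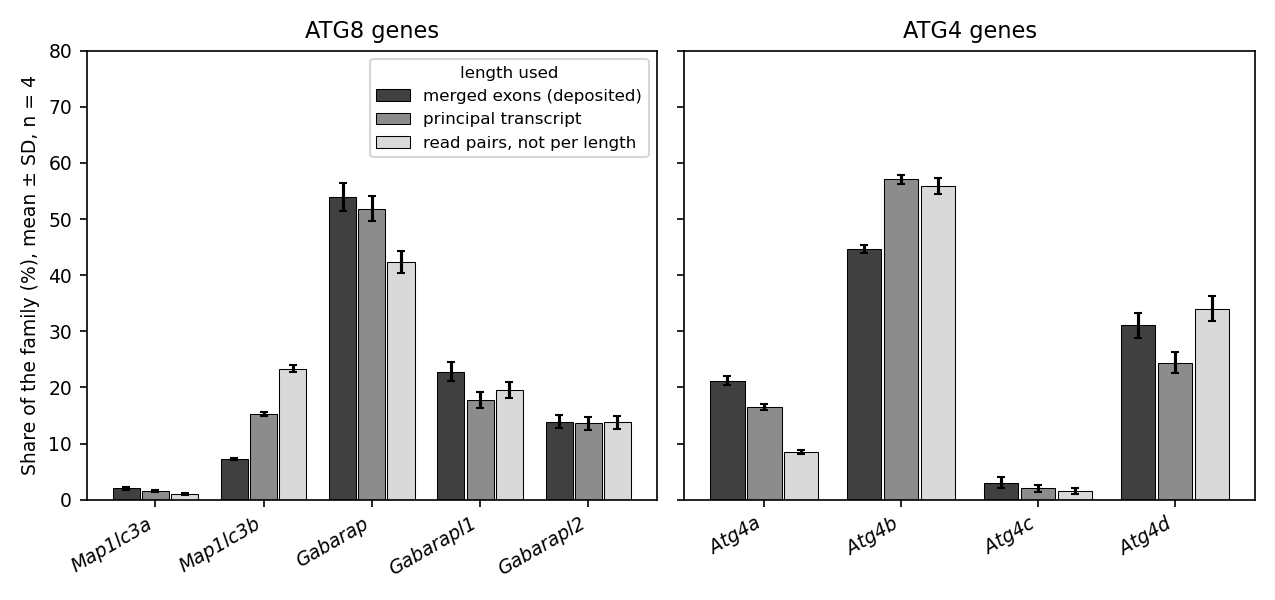
Share of each gene in its family (percent, mean ± SD, n = 4 libraries) for the ATG8 genes and the ATG4 genes. Dark bars use the deposited merged-exon length, grey bars the principal transcript length and light bars read pairs without length. Gabarap held 54.0, 51.9 and 42.4% under the 3 measures, and Atg4b 44.7, 57.1 and 55.9%.

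Sequence copies limit 3 levels most, those with over 10% of windows shared. Of the 50-base windows of the principal transcript, 63.6% of those of Atg4a, 17.0% of those of Gabarapl2 and 13.5% of those of Map1lc3b also occur in a gene elsewhere. Rb1cc1 followed with 8.48%, in Gm13961. A read that fits both places may be left uncounted, because no option for multi-mapping reads is recorded. The copy with most of the shared Atg4a windows is Atg4a-ps on chromosome 3. Atg4a had 608, 540, 696 and 488 read pairs in replicates 1 to 4, against 25, 29, 32 and 12 for Atg4a-ps. The levels of Atg4a, Gabarapl2 and Map1lc3b, and to a lesser extent Rb1cc1, are uncertain for that reason. For 29 of the 40 genes no such window was found.

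The ATG4 proteases, which process the ATG8 precursors and release ATG8 from membranes, were led by Atg4b, regarded as the most broadly active of them. Atg4b had 28.8, 29.9, 29.3 and 28.9 TPM. Atg4d had 19.5, 23.1, 20.7 and 18.04 TPM. Atg4a, on the X chromosome, had 14.2, 13.7, 13.9 and 13.7 TPM. Atg4c had 1.98, 1.41, 1.80 and 2.69 TPM. The 4 genes did not overlap and kept this order in every library. The place and share of Atg4a are uncertain, because 63.6% of its principal transcript windows also occur elsewhere. The shares were 44.7 ± 0.733% for Atg4b, 31.0 ± 2.29% for Atg4d, 21.2 ± 0.802% for Atg4a and 3.04 ± 0.911% for Atg4c (SD, n = 4).

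All 6 ATG4 pairs kept their direction in the 4 libraries, again with no count of other gene pairs beside this. The smallest difference was between Atg4b and Atg4d, 0.51 ± 0.12 on the log2(TPM + 1) scale, and the largest between Atg4b and Atg4c, 3.36 ± 0.27 (exact sign-flip p = 0.125 each). With principal lengths Atg4b over Atg4d widened to 1.18 ± 0.12. Coding identity among the 4 genes was highest for Atg4a and Atg4b at 60.7% and lowest for Atg4a and Atg4d at 45.1%.

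Cargo receptors held the highest gene of the set and, in Optn, a gene below 1 TPM. Sqstm1, which links ubiquitinated cargo to ATG8 proteins, was the highest of all 40 genes, with 152, 165, 148 and 161 TPM. It lies at chr11:50199366-50210827 (mm10, ENSMUSG00000015837.15). Nbr1, a receptor of related domain structure, had 25.5, 26.6, 25.8 and 28.4 TPM. Sqstm1 was 5.89 times as high as Nbr1, a log2(TPM + 1) difference of 2.51 ± 0.06, in 4 of 4 libraries (exact sign-flip p = 0.125). Tax1bp1, a ubiquitin-binding receptor, had 35.1, 35.4, 33.9 and 38.4 TPM. Calcoco1, its relative and a receptor for endoplasmic reticulum and Golgi, had 3.63, 3.70, 3.40 and 5.77 TPM. Replicate 4 lay well above the other 3 for Calcoco1. Tax1bp1 was higher in each library, by a log2(TPM + 1) difference of 2.86 ± 0.21 (exact sign-flip p = 0.125).

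Optn encodes optineurin, a receptor of damaged mitochondria and bacteria. It had 38, 51, 27 and 23 read pairs, or 0.628, 0.919, 0.382 and 0.456 TPM. The exact 95% Poisson intervals reached at most 1.21 TPM, in replicate 2, and were below 1 TPM in the other 3 libraries. Optn was thus the lowest of the 5 receptors in every library. With the highest receptor at 156.6 ± 8.12 TPM and Calcoco1 at 4.13 ± 1.10 TPM, the detected receptors spanned 37.96-fold.

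Transcriptional control was represented by the related factors Tfe3 and Tfeb, which activate lysosome and autophagy genes. Tfe3, on the X chromosome, had 22.4, 21.6, 22.5 and 25.7 TPM. Tfeb had 3.43, 4.81, 3.22 and 3.31 TPM, highest in replicate 2. Tfe3 was 6.25 times as high as Tfeb with no overlap, a log2(TPM + 1) difference of 2.37 ± 0.29, in 4 of 4 libraries (exact sign-flip p = 0.125). With principal lengths the ratio was 7.15. Mitf, another factor of the family, averaged 0.257 ± 0.131 TPM, and Tfec was at 0 in all 4 libraries, which allows up to 3 read pairs per library.

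Set side by side, the median levels of the steps ran from 13.4 to 31.0 TPM. They were 29.6 ± 2.83 TPM for the ULK1 complex, 30.2 ± 1.67 for the PI3-kinase complex, 31.0 ± 2.50 for membrane supply and PI3P readers and 29.5 ± 2.51 for the ATG8 proteins (SD over 4 libraries). These 4 medians lay within 1 SD of each other with merged exons. With principal lengths the same 4 were 25.3 ± 2.31, 34.6 ± 2.25, 39.5 ± 4.18 and 31.7 ± 1.68 TPM and did not. Cargo receptors had a median of 26.6 ± 1.27 TPM, conjugation enzymes 21.7 ± 0.518, ATG4 proteases 17.1 ± 1.07 and the 2 transcription factors 13.4 ± 0.774. Detected genes within a step spanned from 6.25-fold for the transcription factors to 37.96-fold for the receptors. Ranges of single genes are wider than ranges of medians by nature, so the 2 are not comparable. With principal lengths the median for the transcription factors was 25.6 ± 1.57 TPM.

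Of the 25 pairs compared, 24 kept 1 direction in all 4 libraries, each with an exact two-sided sign-flip p of 0.125 and an adjusted p of 0.13. The exception was Atg16l1 with Atg16l2. With principal lengths all 25 pairs kept 1 direction across libraries, and 1 of them, Gabarapl2 with Map1lc3b, had turned round. The share of gene pairs at large that keep 1 direction was not computed. Genes of unlike level keep 1 direction wherever replicates vary little, so these counts are not a trait of autophagy genes.

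**Figure D3:**
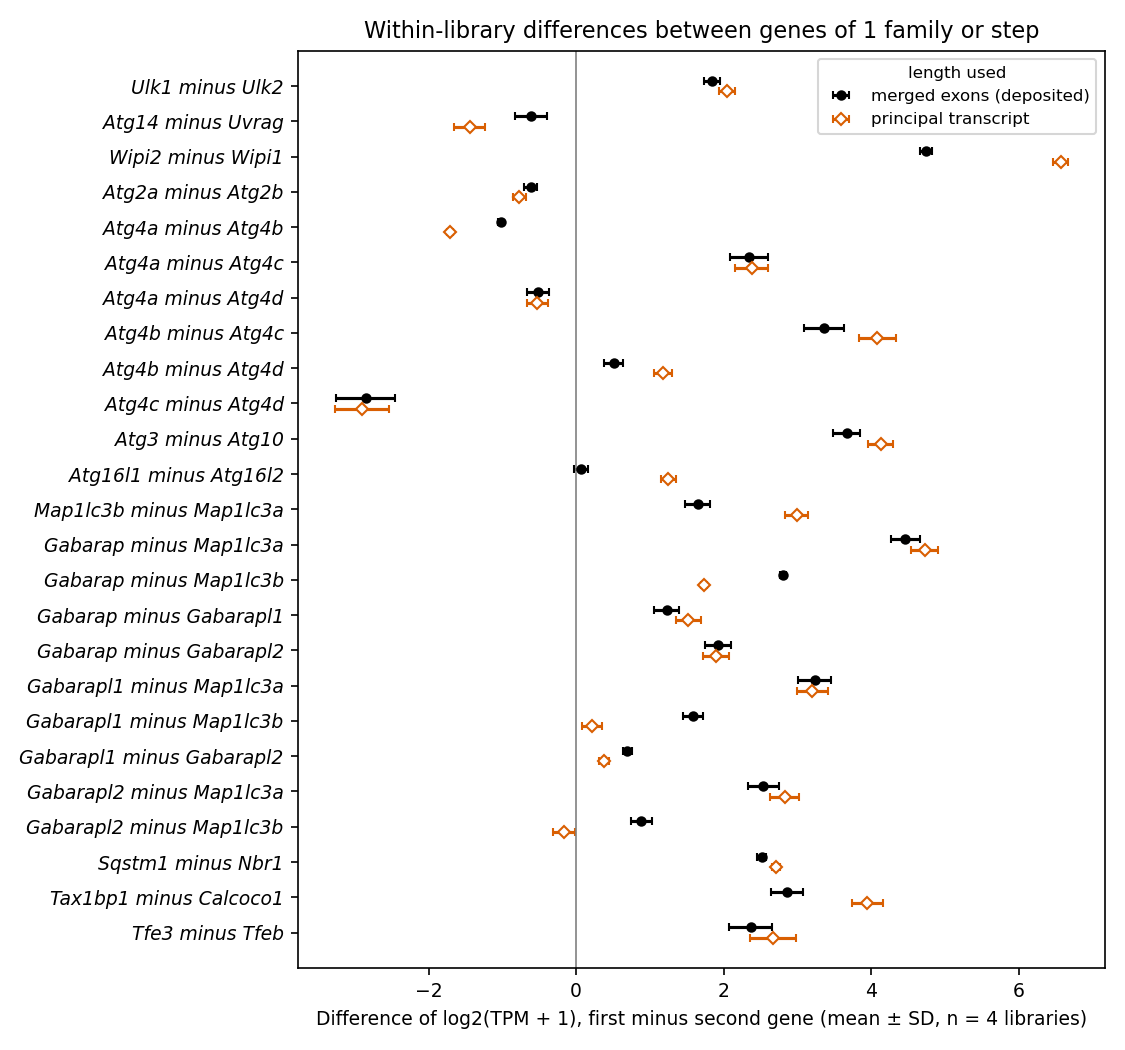
Difference of log2(TPM + 1) between genes of 1 family or step, first minus second gene, as mean ± SD over 4 libraries. Filled circles use the deposited merged-exon length and open diamonds the principal transcript length. Only Atg16l1 minus Atg16l2 lay within its SD of 0 with merged exons, and only Gabarapl2 minus Map1lc3b crossed 0 between the 2 lengths.

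Whether the replicates of any autophagy gene scattered more widely than other genes at the same abundance was tested with edgeR's quasi-likelihood fit over all genes. Of the 39 autophagy genes tested, Wipi1 being too low, 0 passed an adjusted p of 0.05, against 28 of 12285 genes (0.228%). The lowest adjusted p was 0.8502. DESeq2 marked 0 of 40 as dispersion outliers, against 84 of 20867 genes. At an unadjusted edgeR p under 0.05 there were 3 autophagy genes, against 666 of 12285 (5.42%). The 3 were Atg4d, Atg2b and Atg2a, with unadjusted edgeR p of 0.0303, 0.0379 and 0.0422. Atg4d was highest in replicate 2 and lowest in replicate 4, while Atg2a and Atg2b were highest in replicate 4. The median SD of log2 CPM was 0.08 for the autophagy genes tested and 0.10 for all genes tested. These medians are not matched on abundance, and low counts widen the SD, so they do not show that autophagy genes vary less. Pik3c3, Atg3, Atg5 and Atg4a had the smallest SDs, 0.0086, 0.019, 0.034 and 0.041.

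**Figure D4:**
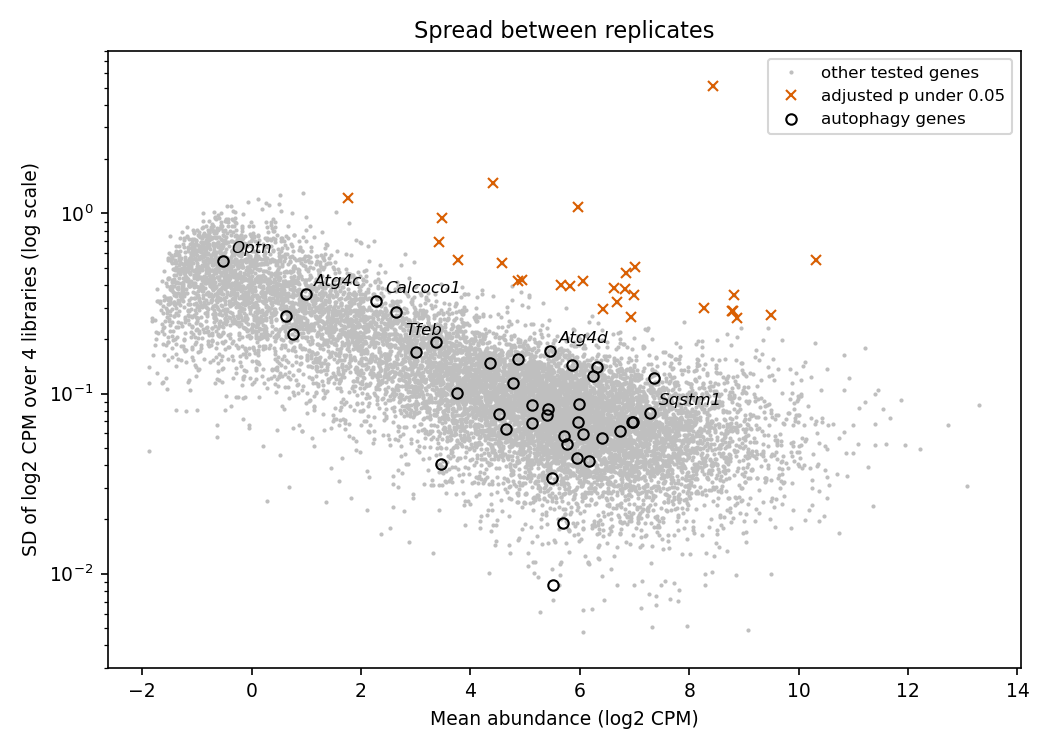
SD of log2 CPM over the 4 libraries (log scale) against mean abundance in log2 CPM for the 12285 genes tested. Open circles are the 39 autophagy genes tested, crosses the 28 genes with an adjusted p under 0.05, and grey points the others. The autophagy genes lie within the grey cloud, and Optn and Atg4c, with SDs of 0.54 and 0.36, sit at low abundance.

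Deviations of single libraries went with transcript length. In replicate 4, 28 of the 38 detected autophagy genes were above the mean of the other 3 libraries, with a median log2 difference of 0.07, against 6127 of the 9840 detected protein-coding genes and a median of 0.04. Across the 38 genes the difference had a Spearman rho of 0.417 with the principal transcript length, and across the 9840 genes of 0.401. The rho over the 38 genes was -0.312 in replicate 1, -0.339 in replicate 2 and 0.187 in replicate 3, and over the 9840 genes -0.205, -0.295 and -0.0486. These are descriptions across genes within libraries, which are not independent replicates. Atg2b, of 7546 bases, was 0.27 higher and Atg2a, of 6371 bases, 0.29 higher in replicate 4 on the log2 TPM scale, while Gabarapl1 and Gabarapl2, of 1820 and 1677 bases, were lower there. Atg4d, of 5951 bases, was also lower there, with a difference of -0.22. Replicate 4 also had the fewest read pairs and the highest mitochondrial share. The B cell markers had their lowest sum there, 2.07 TPM, and Cd8a its lowest level, 0.225 TPM. The part of length, depth, RNA quality or cell composition in these differences was not tested. A setting chosen after seeing the data removed length and GC trends from each library. Its length was that of the merged exons, not of the principal transcript used above. Atg2a and Atg2b then had unadjusted edgeR p of 0.171 and 0.101 and Atg4d 0.0082. The edgeR adjusted p was 0.649 or more for all autophagy genes. Whether length caused the differences was not tested by this.

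**Figure D5:**
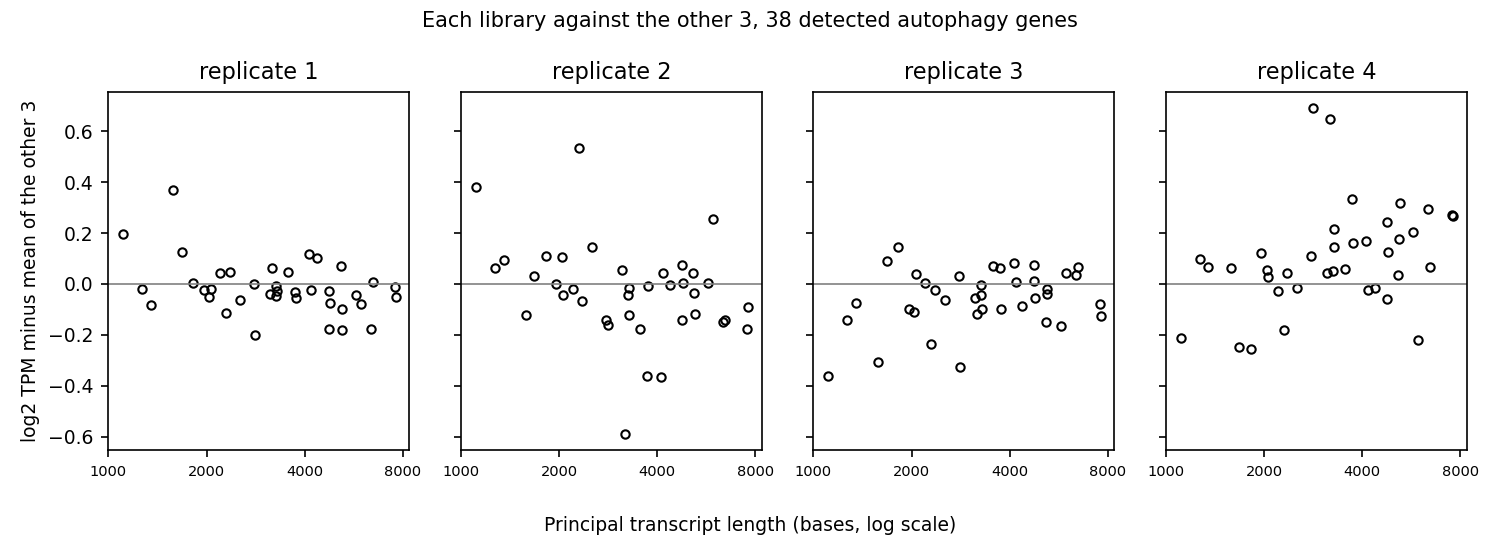
Log2 TPM of each of the 38 detected autophagy genes in 1 library minus its mean in the other 3, against principal transcript length (bases, log scale), with 1 panel per replicate. In replicate 4 longer transcripts tended to lie above 0 (Spearman rho 0.417), and the highest point of that panel is Calcoco1 at 0.69. The tilt was opposite in replicates 1 and 2 (-0.312 and -0.339).

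In a list of 38 other autophagy genes, 32 were at 1 TPM or more in every library, against 9840 of 21751 nuclear protein-coding genes. The 38 genes had a median level of 20.996 TPM. The highest were Rab7, a GTPase of late endosome and autophagosome maturation, at 253.8 ± 4.61 TPM, and Ykt6, a SNARE of autophagosome fusion, at 165.7 ± 3.34 TPM (SD, n = 4). Ei24, a membrane protein that autophagy needs, followed at 71.4 ± 2.41 TPM and Retreg1, a receptor for endoplasmic reticulum turnover, at 49.0 ± 1.17 TPM. Tfec and Wdfy3 were at 0 read pairs in all 4 libraries. Of the 34 genes tested for spread 0 passed the edgeR adjusted p, against 28 of 12285 genes. An unadjusted p under 0.05 was found for 3, against 666 of 12285. DESeq2 marked 0 of 35 as outliers, against 84 of 20867 genes.

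Of 30 lysosome genes, whose products break down what autophagosomes deliver, 29 were detected, against 9840 of 21751 nuclear protein-coding genes. The 30 genes had a median of 37.4 TPM. Ctsz and Psap, a protease and a precursor of lipid-degrading cofactors, averaged 280.4 ± 12.4 and 242.6 ± 6.11 TPM. Lamp1, a lysosomal membrane protein, averaged 263.9 ± 10.7 TPM and Npc2, a cholesterol carrier, 158 ± 5.04 TPM. The lowest were Ctsl, a protease, at 6.54 ± 0.774 TPM and Cd63, a membrane protein of late endosomes, at 0.0572 ± 0.0452 TPM. Of the 29 tested for spread 0 passed the edgeR adjusted p, against 28 of 12285 genes. An unadjusted p under 0.05 was found for 1, against 666 of 12285. DESeq2 marked 0 of 30, against 84 of 20867 genes.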

How the data were processed

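The deposited values are raw counts of read pairs, 1 table for each of 4 T cell libraries. Per the file headers, STAR alignments were counted with featureCounts 1.4.6-p4 over exons, summed by gene, requiring both mates, with strand setting 2 and GENCODE M13. The version of STAR was not given in the sources used here. Per the labels, positions are on mm10. TPM was computed over all genes from the deposited length, which merges all annotated exons. Symbols, principal transcripts and coding sequences came from GENCODE M21, in which 50376 of 50600 identifiers matched. Detected means at least 1 TPM in each of the 4 libraries.

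The spread test used edgeR 4.0.16 (R 4.3.3) with TMM scaling, filterByExpr, no covariate and a robust quasi-likelihood fit. For each gene the residual quasi-dispersion (3 degrees of freedom) was compared with the trended prior (13.9 degrees of freedom) by the upper tail of an F distribution, and p was adjusted by Benjamini-Hochberg over 12285 genes at 0.05. This step was tested on simulated data. DESeq2 1.42.0 gave dispersion outliers and alternative size factors. For gene pairs, log2(TPM + 1) differences within each library were tested by exact sign-flip permutation, two-sided, and adjusted over 25 pairs. Poisson intervals are exact at 95% and cover counting error only. Python 3.11.15, numpy 2.4.6, pandas 2.3.3, scipy 1.17.1 and matplotlib 3.10.9 were used.

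The 40 genes, the pairs and the other lists were chosen with earlier results of these data known. Named were all 40 genes, the 4 highest, the 2 lowest and any gene past the spread threshold in the other autophagy and lysosome lists, and marker genes. A gene of the other autophagy list is not reported here by name. Mitf is named as a relative of Tfeb, after its value was seen. Alternatives covered scaling, filters, the prior, pseudocounts, detection floor, gene length, means in place of medians and each replicate left out.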

Additional observations from a re-analysis of the deposited data

Results flagged for a closer look

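In 5 of 82 values looked at, 1 library stood far from its 3 fellows. Its gap to the nearest of them, divided by the range of all 4, exceeded Dixon's 95% critical value of 0.829. Chance marks about 1 in 20 groups. Atg13 was low in replicate 2, at 29.7 TPM. Uvrag was low in replicate 3, at 14.6 TPM. Calcoco1 was high in replicate 4, at 5.77 TPM, and the log2(TPM + 1) difference of Tax1bp1 minus Calcoco1, which shares that value, was low there at 2.54. Tfeb was high in replicate 2, at 4.81 TPM. None of these 4 genes passed the edgeR spread test, with adjusted p of 0.962 or more, and none had an unadjusted p under 0.05.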

How the results depend on the processing

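The counts of genes past the spread threshold (0 in each list) and of detected genes (38, or 32 at a floor of 5 TPM) did not move by over 1.5 times under any alternative, leaving out each replicate included. Unadjusted calls among the autophagy genes ran from 1 of 39, against 616 of 12285 genes with length and GC trends removed and 680 of 12498 without replicate 4, to 5 of 40, against 1225 of 20867 without a low-count filter. Without 1 replicate, Atg16l1 minus Atg16l2 ran from 0.02 to 0.09. No pairing of samples between groups was possible because the series has 1 group. The settings of principal transcript length and of length and GC trends were chosen after seeing the data.

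Read pairs without length, as log2(CPM + 1), turned Gabarapl1 minus Map1lc3b to -0.25 and Gabarapl2 minus Map1lc3b to -0.74, and principal transcript length turned Gabarapl2 minus Map1lc3b to -0.17. By construction only the length used differs in these. TPM over nuclear protein-coding genes gave step medians of 28.2 TPM for cargo receptors, 32.1 for the PI3-kinase complex, 23.1 for conjugation enzymes and 14.2 for transcription factors. Means over genes gave 42.4 TPM for ATG8 proteins, 44.7 for receptors, 35.7 for the PI3-kinase complex and 30.8 for conjugation enzymes. Principal lengths gave medians of 14.3 TPM for ATG4 proteases, 25.3 for the ULK1 complex, 34.6 for the PI3-kinase complex, 39.5 for membrane supply and PI3P readers and 25.6 for transcription factors, and shares of 16.5% for Atg4a, 57.1% for Atg4b, 2.06% for Atg4c, 24.4% for Atg4d, 17.8% for Gabarapl1, 1.51% for Map1lc3a and 15.3% for Map1lc3b. Shares of read pairs were 8.53% for Atg4a, 55.9% for Atg4b, 1.54% for Atg4c, 34.0% for Atg4d, 42.4% for Gabarap, 19.5% for Gabarapl1, 1.01% for Map1lc3a and 23.3% for Map1lc3b. Depth limits Wipi1 and Optn, whose counts stayed at or under 51 read pairs.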

Other observations

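Other members of 2 small families, named after their values were seen, add to the picture of membrane supply. Wdr45b and Wdr45 encode PI3P-binding relatives of the WIPI proteins. Wdr45b had 36.4, 36.0, 34.8 and 36.0 TPM in replicates 1 to 4, and Wdr45 had 7.46, 7.17, 6.12 and 6.66 TPM. Wdr45b was thus above Wipi2 and Wdr45 below it in every library, with Wipi1 near 0. Of the exon bases of Wdr45, 24.7% are shared with another gene on the same strand, where reads may be left uncounted. Atg9b, the paralogue of Atg9a, had 8.19, 9.15, 9.37 and 11.7 TPM, above Atg9a in every library. Of the exon bases of Atg9a 31.8% are shared in the same way, and of Atg9b 0%, so Atg9a may be undercounted by either length. With principal transcript lengths Atg9b averaged 6.70 ± 1.06 TPM and Atg9a 4.4999 ± 0.545 TPM (SD, n = 4), and Wipi2 then exceeded Wdr45b, which averaged 48.5 ± 0.932 TPM. These are descriptions with no test.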
